A study of Mus musculus with 479 samples.

Results

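Gluconeogenesis and insulin response genes were followed through 9 members of the 24475 gene identifiers in each table: Pck1, G6pc (also named G6pc1), Fbp1, Slc37a4, Igfbp1, Irs1, Irs2, Foxo1 and Foxo3. They were chosen by name, with earlier results of these data known, as genes whose expression is set by feeding and insulin. All 9 were found by NCBI gene identifier. Poly(A) RNA was sequenced from the liver, kidney, heart and lung of heterozygous mice carrying 1 disrupted copy of Dchs1 (Dchs1 Het) with their wild-type littermates (Dchs1 WT), and of heterozygous mice carrying 1 disrupted copy of Fat4 (Fat4 Het) with theirs (Fat4 WT). Dchs1 and Fat4 encode large cadherins that bind each other between neighbouring cells. All mice were C57BL/6NTac, and no treatment is named. The 479 libraries fell into groups of 30, apart from Dchs1 Het liver with 29. The study is described as asking how many mice an RNA-seq comparison needs. The labels used here give no feeding state, hour of collection, sex or age, and do not say whether each library came from a separate animal, and p-values therefore reflect differences among libraries, which may be technical. Whole tissue was used, in which fewer cells of a type and less RNA per cell cannot be told apart.

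Libraries held 10720364 to 32282525 reads assigned to genes, with a median of 18978025. The targeted gene was lower in the Het libraries of every tissue: Dchs1 in the Dchs1 line by log2 fold changes of -1.14 (liver), -1.19 (kidney), -1.10 (heart) and -1.24 (lung), and Fat4 in the Fat4 line by -1.03, -1.07, -0.95 and -0.98 in the same order. The summed TPM, a level scaled to transcript length and to the library's total, of 6 hepatocyte markers had group medians of 78478 to 91344 in liver and at most 220.6 in kidney. The summed TPM of 6 proximal tubule markers had a median of 1815 in Dchs1 Het kidney against 2403 in Dchs1 WT kidney, and of 3066 in Fat4 Het kidney against 2888 in Fat4 WT kidney. Fold changes below are log2 of Het over WT from edgeR's quasi-likelihood test on counts, ± standard error, and a gene was called when its p, adjusted by Benjamini-Hochberg over all genes tested, was under 0.05.

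Liver and kidney release glucose into blood during a fast. Pck1 makes phosphoenolpyruvate, Fbp1 removes a phosphate from fructose 1,6-bisphosphate, Slc37a4 carries glucose 6-phosphate into the endoplasmic reticulum, and G6pc frees glucose from it there. After a meal insulin acts through its receptor on the adaptors Irs1 and Irs2 and on the kinase Akt, which phosphorylates the transcription factors Foxo1 and Foxo3 and keeps them out of the nucleus. When insulin is low, nuclear FoxO proteins raise G6pc, Pck1, Irs2 and Igfbp1, a secreted protein that binds insulin-like growth factors. Glucagon, through cAMP, and glucocorticoids raise several of the same genes.

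The promoters of 4 members are shown because insulin and cAMP are known to act on these genes through short elements near the start of transcription. They are RefSeq sequences of mouse GRCm38.p6, from 250 bases before to 50 bases after the annotated start, 5′ to 3′ on the gene's own strand. Capitals mark the insulin response element CAAAACA, or its reverse complement TGTTTTG, and in Pck1 the cAMP response element variant TGACGTAA as its reverse complement TTACGTCA.
Igfbp1, chr11:7197537-7197836, plus strand: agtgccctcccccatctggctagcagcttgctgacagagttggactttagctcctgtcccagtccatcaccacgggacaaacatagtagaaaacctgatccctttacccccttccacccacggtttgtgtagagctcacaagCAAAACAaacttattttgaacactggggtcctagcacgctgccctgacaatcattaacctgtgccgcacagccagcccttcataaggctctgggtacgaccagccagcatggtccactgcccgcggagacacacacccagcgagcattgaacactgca
G6pc, chr11:101367466-101367765, plus strand: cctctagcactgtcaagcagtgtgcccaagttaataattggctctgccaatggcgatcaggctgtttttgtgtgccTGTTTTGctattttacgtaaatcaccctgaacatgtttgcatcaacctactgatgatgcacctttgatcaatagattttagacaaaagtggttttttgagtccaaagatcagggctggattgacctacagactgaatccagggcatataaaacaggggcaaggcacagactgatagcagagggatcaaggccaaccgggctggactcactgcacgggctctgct
Irs2, chr8:11008880-11009179, minus strand: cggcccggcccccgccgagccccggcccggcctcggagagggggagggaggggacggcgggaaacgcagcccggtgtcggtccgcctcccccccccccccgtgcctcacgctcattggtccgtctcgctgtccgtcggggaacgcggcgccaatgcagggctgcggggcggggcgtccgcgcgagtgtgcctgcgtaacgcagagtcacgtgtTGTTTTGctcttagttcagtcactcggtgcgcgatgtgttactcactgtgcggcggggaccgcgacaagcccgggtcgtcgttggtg
Pck1, chr2:173152823-173153122, plus strand: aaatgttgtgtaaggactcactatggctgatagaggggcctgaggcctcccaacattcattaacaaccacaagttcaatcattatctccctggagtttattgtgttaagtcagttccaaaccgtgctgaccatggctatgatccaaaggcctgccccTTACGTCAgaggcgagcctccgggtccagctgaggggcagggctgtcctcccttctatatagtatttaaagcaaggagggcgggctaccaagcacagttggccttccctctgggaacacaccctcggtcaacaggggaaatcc
The capitals begin 108 bases before the start in Igfbp1, 174 in G6pc, 37 in Irs2 and 93 in Pck1. Both strands were searched for 4 motifs in the promoters of the 9 members. CAAAACA was found in 4 of them, those of Igfbp1, G6pc, Irs2 and Irs1 (111 and 32 bases before the start), and in 2064 of 32851 RefSeq promoters, or 6.28%. TGACGTAA was found in Pck1 and in 164 promoters of all genes (0.499%). The FoxO motif GTAAACA (1199 promoters, 3.65%) and the full cAMP response element TGACGTCA (588 promoters, 1.79%) were found in no member. A match is a description of letters in this window and does not show that a factor binds there.

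Pck1, Fbp1, G6pc and Slc37a4 were genes of liver and kidney, and Igfbp1 was mostly a gene of liver. Pck1 (gene body chr2:173153073-173159274) had a median of 2113 TPM in Dchs1 WT liver and 2316 TPM in Dchs1 WT kidney, against 5.99 TPM in lung and 3.08 TPM in heart. In Fat4 WT the medians were 2333 TPM in liver, 2507 TPM in kidney, 5.65 TPM in lung and 4.34 TPM in heart. Liver and kidney ranges of Pck1 overlapped in both lines, and the lowest WT kidney, at 868 TPM, stood above the highest lung or heart at 74.3 TPM. Fbp1 (chr13:62864753-62888298) had medians of 887 and 913 TPM in liver and 693 and 761 TPM in kidney of Dchs1 and Fat4 WT mice, and of 0.399 TPM or less in lung and heart. G6pc (chr11:101367716-101377903) had medians of 328 and 294 TPM in those livers and 131 and 157 TPM in those kidneys. Igfbp1 (chr11:7197787-7202546) had medians of 107 and 105 TPM in liver and 7.84 and 9.22 TPM in kidney. In heart and lung no library held more than 5 reads of G6pc or more than 3 of Igfbp1, and in the smallest libraries of a group 3 reads were worth 0.162 to 0.202 CPM, counts scaled to the library's total, in heart and 0.208 to 0.277 CPM in lung.

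The insulin signalling members were lower and more evenly spread over tissues. Foxo1 (chr3:52268337-52350109) had WT medians of 26.4 TPM in lung, 17.4 TPM in kidney, 12.8 TPM in liver and 8.88 TPM in heart in the Dchs1 line. Foxo3 (chr10:42181845-42276695) was likewise highest in lung, with 18.1 TPM in Dchs1 WT, and had medians of 7.65 TPM in heart, 5.11 TPM in kidney and 4.27 TPM in liver. Irs1 (chr1:82233105-82291439) was highest in heart at 9.01 TPM and lowest in kidney at 2.17 TPM, and Irs2 (chr8:10984681-11008929) was highest in lung at 7.37 TPM and lowest in heart at 1.69 TPM in Dchs1 WT. By median TPM the same tissues were highest and lowest for these 4 members in Fat4 WT. Neighbours in these orders overlapped in their WT ranges, apart from lung above kidney for Foxo1 and liver above kidney for Irs1 in the Fat4 line. Slc37a4 (chr9:44396946-44402966) had medians of 108 TPM in liver, 100.5 TPM in kidney, 11.3 TPM in lung and 5.21 TPM in heart of Dchs1 WT mice.

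Between WT liver and WT kidney, 7 of 9 members differed in the Dchs1 line and 8 of 9 in the Fat4 line, beside 90.2% and 91.9% of all genes tested. Igfbp1 was higher in liver by 4.73 ± 0.43 in Dchs1 WT and 4.10 ± 0.23 in Fat4 WT. G6pc was higher by 1.56 ± 0.13 and 1.40 ± 0.11, Irs1 by 1.42 ± 0.071 and 1.46 ± 0.063, Irs2 by 0.96 ± 0.16 and 0.92 ± 0.10, and Fbp1 by 0.79 ± 0.056 and 0.74 ± 0.044. These 5 members were also higher in liver, with adjusted p under 0.05, by limma on log2(TPM + 1). On the count scale 49.2% and 49.4% of the genes called were higher in liver, and on the TPM scale 30.8% and 30.01%. The direction of Pck1 depended on the scaling: it was 0.31 and 0.36 on the count scale and -0.12 and -0.16 on the TPM scale, where the median of all genes lay at -0.33 and -0.41. Foxo1, at 0.09 and 0.43 on the count scale, also turned over on the TPM scale, as did Slc37a4 and Foxo3 in the Fat4 line.

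**Figure D1:**
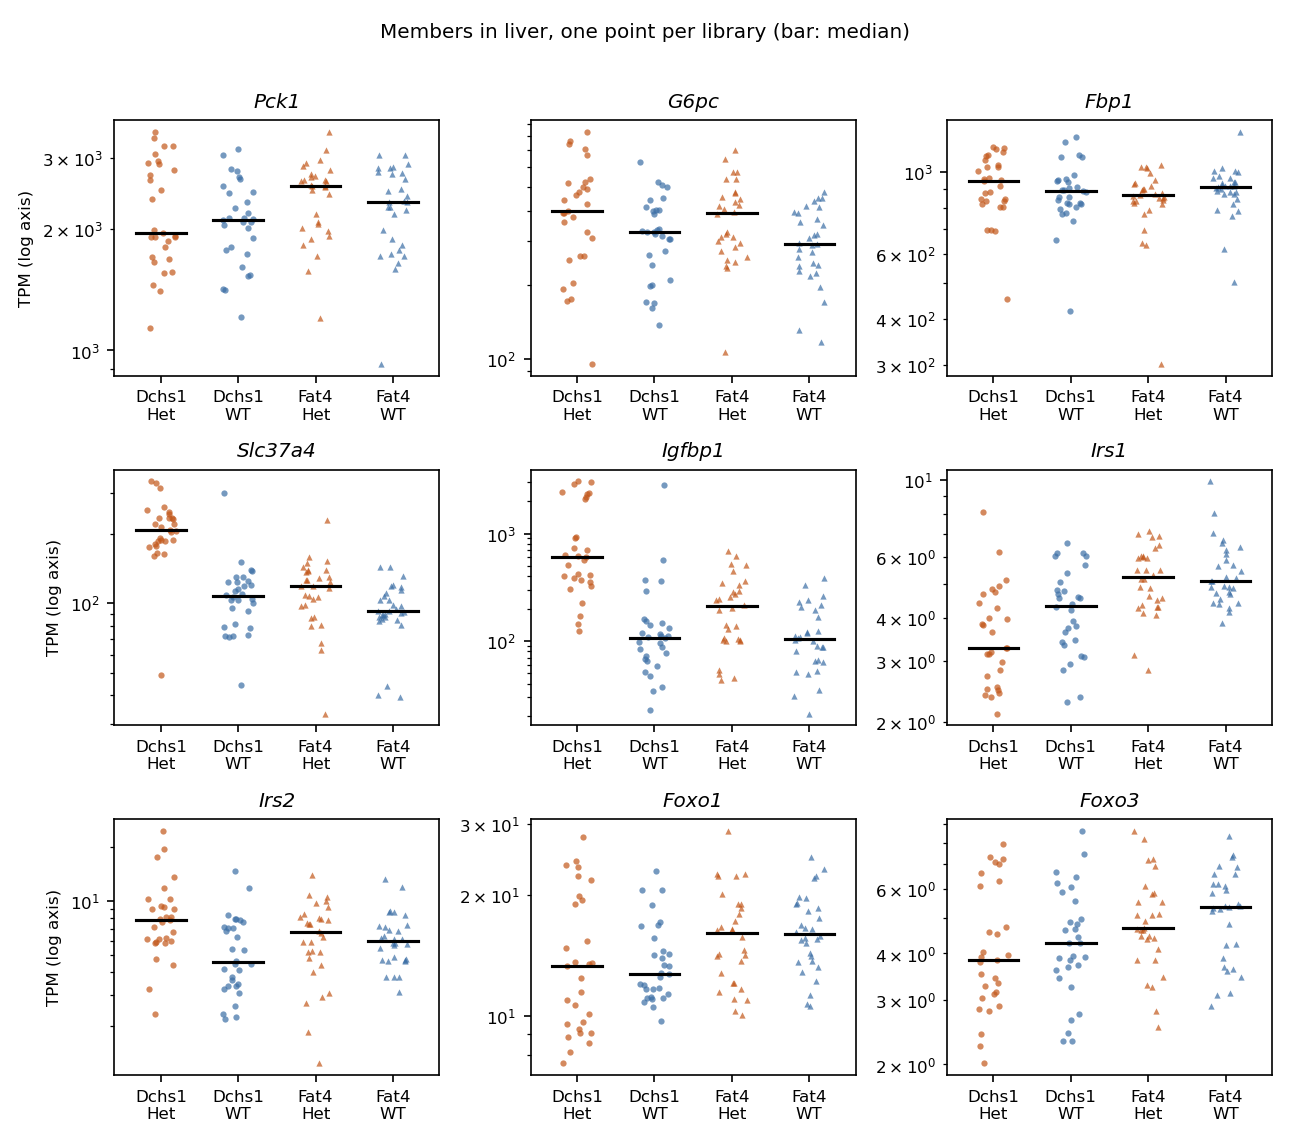
TPM of the 9 members in every liver library (points, log axis) of Dchs1 Het, Dchs1 WT, Fat4 Het and Fat4 WT mice, with the group median as a bar. Igfbp1 had a median of 605 TPM in Dchs1 Het liver against 107 TPM in Dchs1 WT liver, and 1 Dchs1 WT library stood at 2859.8 TPM.

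In liver, Igfbp1, Slc37a4 and G6pc were called higher in Het mice of both lines, Irs2 was called higher in the Dchs1 line, and no member was called lower. In Dchs1 Het liver 4 of 9 members were called, all higher, where 24.3% of the 12526 genes tested were called higher, 25.4% lower and 49.8% either way, so the share of members lay near that of all genes. Of the 9 members 3 were called in Fat4 Het liver, all higher, where 3.64% of genes were called higher, 3.51% lower and 7.15% either way. With limma on log2(TPM + 1), 13.4% of all calls in Fat4 liver were higher, against 50.9% with counts. All 9 members passed the filter on low counts in liver and in kidney.

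Igfbp1 ranged from 125 to 3055 TPM in Dchs1 Het liver, with a median of 605 TPM, and from 22.7 to 2859.8 TPM in Dchs1 WT liver, with a median of 107 TPM. All 29 Het livers lay above the WT median, and 20 of 30 WT livers lay below the lowest Het liver. The fold change was 2.19 ± 0.40 (adjusted p = 7.79e-06), and 1.95 within the longest run of consecutive library numbers, which stands in here for a batch. Between 932 and 2081 TPM there was no Dchs1 Het liver, and 8 of 29 lay above that gap. A single Dchs1 WT liver lay above 562 TPM, the one at 2859.8 TPM, and without it the fold change was 2.94 ± 0.33.

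That WT liver stood apart in several members. By CPM it was the highest of the 30 Dchs1 WT livers in Pck1, Slc37a4, Igfbp1, Irs2 and Foxo1, and the lowest in Fbp1. Its Dchs1 level, 2.23 CPM, lay within the range of the other WT livers, whose median was 2.72 CPM. The highest Dchs1 Het liver, at 1.94 CPM, lay below it but above the lowest WT liver, at 1.38 CPM, so the WT and Het ranges overlapped.

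In Fat4 Het liver Igfbp1 ranged from 43.0 to 681 TPM with a median of 210 TPM, and in Fat4 WT liver from 21.0 to 385 TPM with a median of 105 TPM. The groups overlapped over most of this range, with 21 of 30 Het livers above the WT median. Igfbp1 had a fold change of 0.92 ± 0.25 (adjusted p = 0.0144), a call lost with limma on log2(TPM + 1) without a filter on low values (0.82, adjusted p = 0.0796).

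Slc37a4, the glucose 6-phosphate transporter, ranged from 49.2 to 337 TPM with a median of 208 TPM in Dchs1 Het liver, and from 44.3 to 300.2 TPM with a median of 108 TPM in Dchs1 WT liver. Of the 29 Het livers 28 lay above the WT median, and the lowest of them, at 49.2 TPM, was separated by a gap from the next at 161 TPM. That liver had the lowest TPM of its group in 6 of the 9 members, and single libraries were likewise lowest in 5 members in Dchs1 WT liver, 7 in Dchs1 WT kidney, 8 in Fat4 Het liver and 6 in Fat4 WT kidney. Leaving each of these out in turn changed 1 member's call, that of G6pc in Dchs1 liver. The fold change of Slc37a4 was 0.96 ± 0.11 (adjusted p = 1.94e-10), and it was 1.01 within the longest run of library numbers. In Fat4 liver the ranges were 33.3 to 230.2 TPM in Het mice, with a median of 119 TPM, and 39.3 to 143 TPM in WT mice, with a median of 93.0 TPM. Slc37a4 had a fold change of 0.33 ± 0.094 (adjusted p = 0.0173), with 23 of 30 Het livers above the WT median.

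G6pc, the catalytic subunit of glucose 6-phosphatase, ranged from 95.6 to 833 TPM with a median of 397 TPM in Dchs1 Het liver, and from 137 to 629 TPM with a median of 328 TPM in Dchs1 WT liver. The ranges overlapped, and 19 of 29 Het livers lay above the WT median. The fold change of 0.35 ± 0.15 passed with an adjusted p of 0.046, and the call was lost without each of 3 single libraries (adjusted p of 0.0517, 0.055 and 0.0766), within the longest run of library numbers (0.24, adjusted p = 0.174) and with limma on TPM. In Fat4 liver G6pc ranged from 107 to 703 TPM with a median of 391 TPM in Het mice, and from 117 to 474 TPM with a median of 294 TPM in WT mice. The fold change was 0.39 ± 0.11 (adjusted p = 0.0227), with 22 of 30 Het livers above the WT median. By limma on log2(TPM + 1) the Fat4 liver calls of G6pc and Slc37a4 were lost (adjusted p of 0.127 and 0.173).

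Irs2, the insulin receptor adaptor that FoxO proteins induce, ranged from 2.35 to 24.6 TPM with a median of 7.88 TPM in Dchs1 Het liver, and from 2.21 to 14.8 TPM with a median of 4.54 TPM in Dchs1 WT liver. Of 29 Het livers 26 lay above the WT median. The fold change was 0.66 ± 0.17 (adjusted p = 0.00113), and 0.58 within the longest run. The median of Irs2 was 6.69 TPM in Fat4 Het liver against 6.01 TPM in Fat4 WT liver, with overlapping ranges and no call.

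The other members were not called in either line's liver. Pck1 ranged from 1135 to 3493 TPM with a median of 1959.5 TPM in Dchs1 Het liver, and from 1209 to 3161 TPM with a median of 2113 TPM in Dchs1 WT liver, a fold change of 0.10. Fbp1 had a fold change of 0.08, Foxo1 of 0.07 and Foxo3 of -0.03 in the Dchs1 line. Foxo1 was more widely spread in Dchs1 Het liver, where 4 livers lay above and 9 below every WT liver. Irs1 had medians of 3.28 TPM in Dchs1 Het and 4.33 TPM in Dchs1 WT liver and a fold change of -0.20 (adjusted p = 0.108), which passed the threshold without 1 Het library (-0.25, adjusted p = 0.0283) and within the longest run (-0.27, adjusted p = 0.0378).

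**Figure D2:**
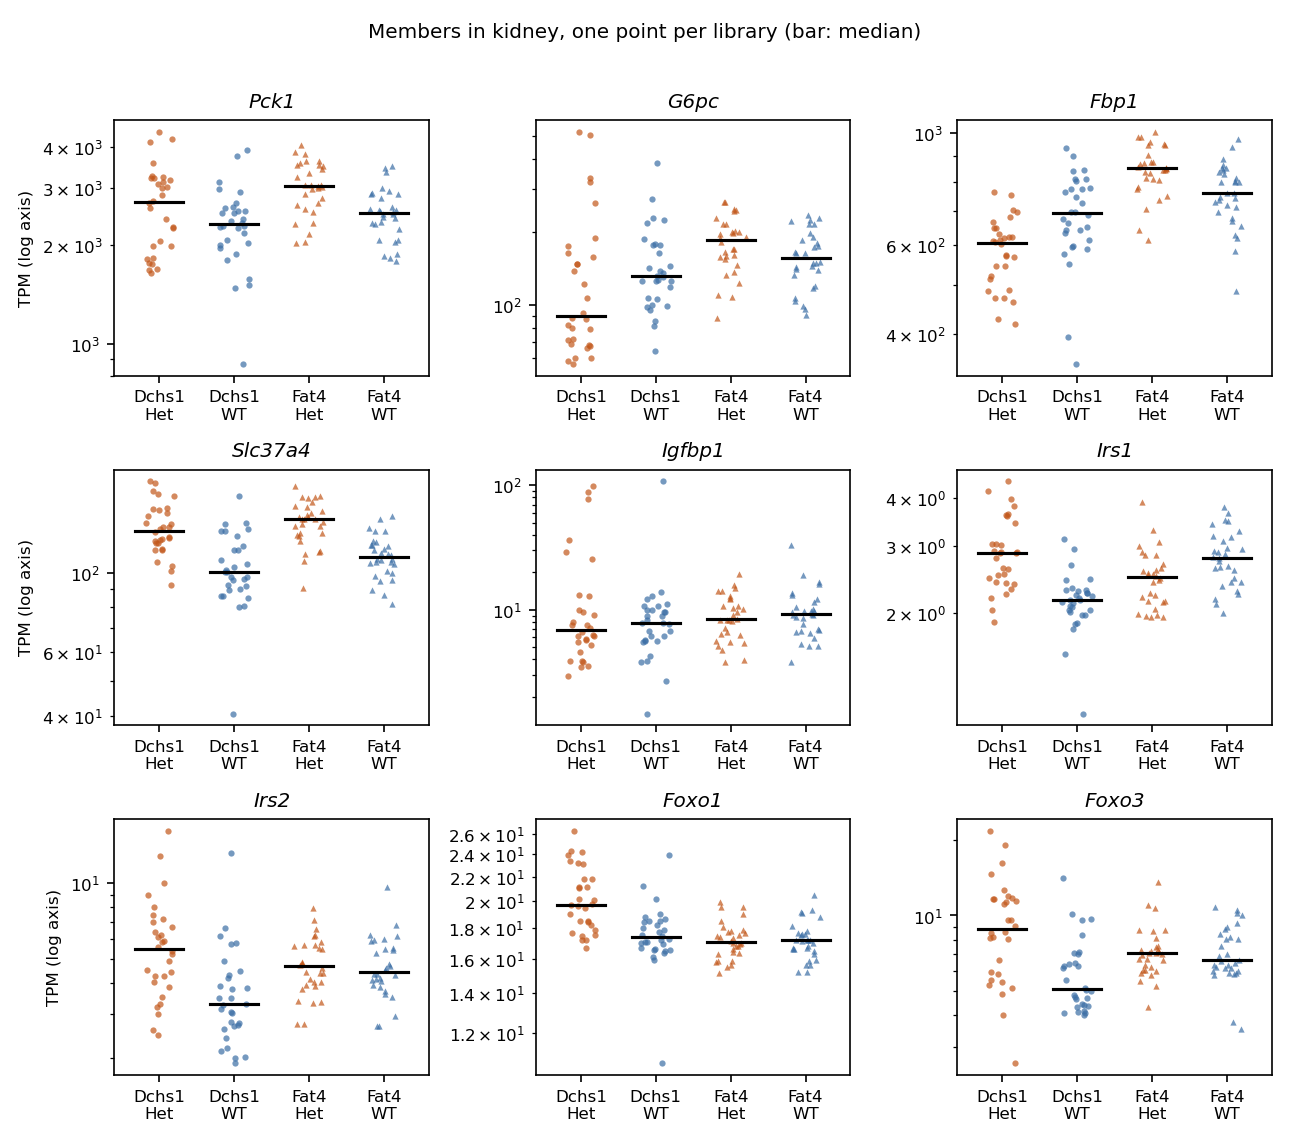
TPM of the 9 members in every kidney library (points, log axis) of the same 4 groups, with the group median as a bar. In Igfbp1, 3 Dchs1 Het kidneys at or above 77.3 TPM and 1 Dchs1 WT kidney at 107 TPM stand apart from the others of their groups.

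In kidney, Slc37a4 was called higher in Het mice of both lines, and Fbp1 and Irs1 were called in both lines with opposite signs. In Dchs1 Het kidney 5 of 9 members were called higher and 1 lower, where 23.4% of 14142 genes were called higher, 23.8% lower and 47.2% either way. In Fat4 Het kidney 3 of 9 were called higher and 1 lower, where 9.21% of genes were called higher, 7.87% lower and 17.1% either way. With limma on log2(TPM + 1), 78.5% of all calls in Dchs1 kidney and 68.1% in Fat4 kidney were higher, against 49.5% and 53.9% with counts. Tallies of kidneys above or below a WT median use TPM, while the fold changes use counts.

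Slc37a4 ranged from 92.3 to 179 TPM with a median of 131 TPM in Dchs1 Het kidney, and from 40.5 to 163 TPM with a median of 100.5 TPM in Dchs1 WT kidney. It ranged from 90.5 to 175 TPM with a median of 141 TPM in Fat4 Het kidney, and from 81.7 to 144 TPM with a median of 110.3 TPM in Fat4 WT kidney. The ranges overlapped in both lines, but 29 of 30 Dchs1 Het kidneys and 28 of 30 Fat4 Het kidneys lay above the WT median of their line. The fold changes were 0.26 ± 0.061 (adjusted p = 0.000306) and 0.29 ± 0.045 (adjusted p = 1.31e-05), and within the longest run 0.27 and 0.31.

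Fbp1, the fructose 1,6-bisphosphatase of liver and proximal tubule, ranged from 419 to 763 TPM with a median of 605 TPM in Dchs1 Het kidney, and from 348 to 933 TPM with a median of 693 TPM in Dchs1 WT kidney. In Fat4 Het kidney it ranged from 615 to 1005 TPM with a median of 851 TPM, and in Fat4 WT kidney from 486 to 974 TPM with a median of 761 TPM. It was below the WT median in 26 of 30 Dchs1 Het kidneys and above it in 25 of 30 Fat4 Het kidneys. The fold changes were -0.32 ± 0.052 (adjusted p = 5.47e-07) and 0.14 ± 0.039 (adjusted p = 0.0115). Beside this, 4 of 6 proximal tubule markers were called lower in Dchs1 Het kidney (summed TPM of 1330 to 2315, against 1543 to 3981 in Dchs1 WT kidney), and 1 of 6 was called higher in Fat4 Het kidney (2259 to 4329, against 1892 to 3718 in Fat4 WT kidney). Of 5 markers of distal nephron and collecting duct 3 were called lower in Fat4 Het kidney (summed TPM of 738 to 2023, against 805 to 2132 in Fat4 WT kidney), and 2 were called higher and 1 lower in Dchs1 Het kidney (629.8 to 1316, against 308 to 1462 in Dchs1 WT kidney). Of all genes tested, 23.4% were called higher and 23.8% lower in Dchs1 Het kidney, and 9.21% and 7.87% in Fat4 Het kidney. No marker of either list had a median of 0, and the part of these cells in the Fbp1 result was not tested.

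Pck1 ranged from 2036 to 4038 TPM with a median of 3042 TPM in Fat4 Het kidney, and from 1792 to 3504 TPM with a median of 2507 TPM in Fat4 WT kidney. Of 30 Het kidneys 25 lay above the WT median, and the fold change was 0.25 ± 0.065 (adjusted p = 0.00484). In Dchs1 Het kidney Pck1 had a median of 2709 TPM against 2316 TPM in Dchs1 WT kidney, a fold change of 0.12 that was not called. G6pc had a median of 90.2 TPM in Dchs1 Het kidney against 131 TPM in Dchs1 WT kidney, with a highest value of 519 TPM in Het and 384 TPM in WT mice, and was not called in either line.

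Irs1 ranged from 1.89 to 4.42 TPM with a median of 2.87 TPM in Dchs1 Het kidney, and from 1.09 to 3.13 TPM with a median of 2.17 TPM in Dchs1 WT kidney. It lay above the WT median in 28 of 30 Dchs1 Het kidneys and below it in 23 of 30 Fat4 Het kidneys. The fold changes were 0.35 ± 0.064 (adjusted p = 8.21e-06) and -0.20 ± 0.054 (adjusted p = 0.00907), the second lost with limma on TPM (adjusted p = 0.0562). Irs2 had a median of 5.47 TPM in Dchs1 Het kidney against 3.29 TPM in Dchs1 WT kidney, with a fold change of 0.56 ± 0.16 (adjusted p = 0.00291).

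Foxo3 ranged from 2.58 to 21.7 TPM with a median of 8.84 TPM in Dchs1 Het kidney, and from 4.02 to 14.2 TPM with a median of 5.11 TPM in Dchs1 WT kidney. Of 30 Het kidneys 27 lay above the WT median, and the fold change was 0.56 ± 0.14 (adjusted p = 0.000667). Foxo1 changed less, by 0.12 ± 0.044 (adjusted p = 0.022), with medians of 19.7 TPM in Dchs1 Het and 17.4 TPM in Dchs1 WT kidney, and was -0.04 in the 5 Het and 7 WT kidneys outside the longest run. Neither Foxo1 nor Foxo3 was called in Fat4 Het kidney.

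Igfbp1 in kidney rested on few libraries. It ranged from 2.96 to 98.5 TPM with a median of 6.92 TPM in Dchs1 Het kidney, and from 1.46 to 107 TPM with a median of 7.84 TPM in Dchs1 WT kidney. There were 3 Het kidneys above a gap that ran from 36.2 to 77.3 TPM, and 1 WT kidney above a gap that ran from 14.0 to 107 TPM. That WT kidney was the highest of the 30 Dchs1 WT kidneys in every member except Fbp1. Its Dchs1 level, 8.015 CPM, was the lowest of those WT kidneys, whose median was 10.8 CPM, and lay above the highest Dchs1 Het kidney at 6.68 CPM. The fold change was 0.55 ± 0.35 (adjusted p = 0.202) with it and 1.06 ± 0.31 (adjusted p = 0.00338) without it.

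**Figure D3:**
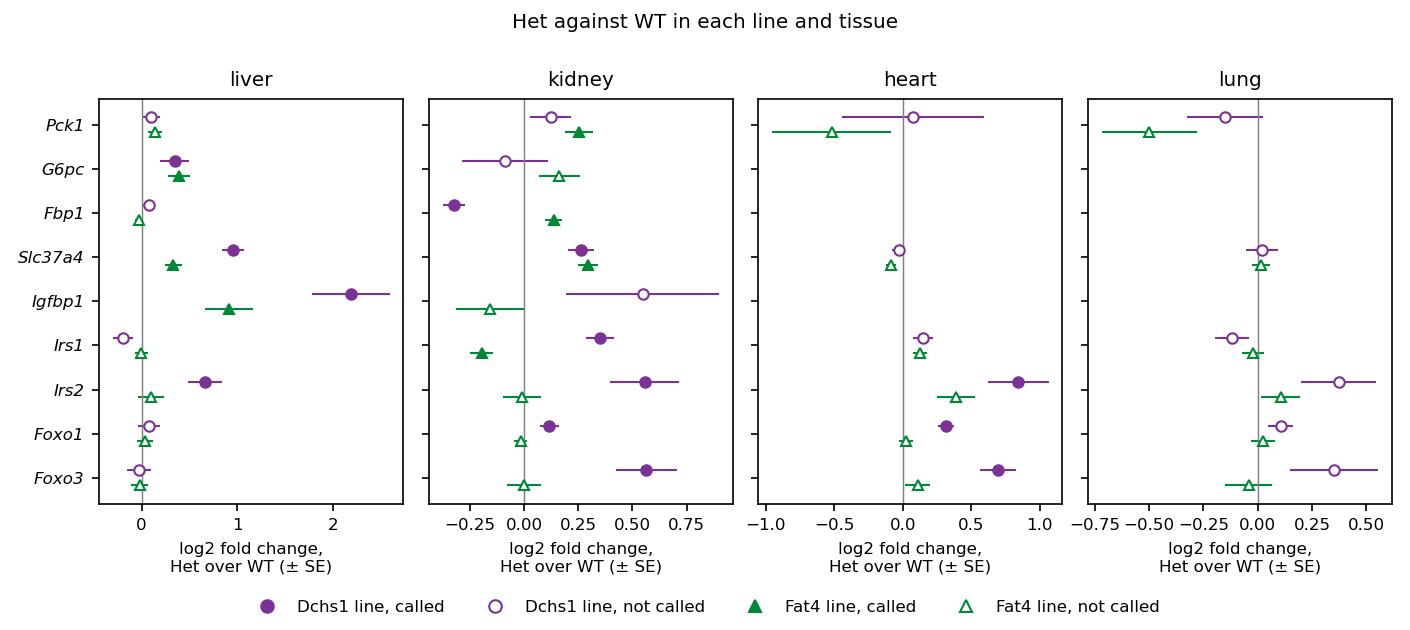
Log2 fold change of Het over WT (points, with standard error) for each member in liver, kidney, heart and lung. Circles are the Dchs1 line and triangles the Fat4 line, filled where the adjusted p was under 0.05. Igfbp1 in Dchs1 liver, at 2.19, lies farthest from 0.

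In heart and lung only 6 members passed the filter on low counts. In Dchs1 Het heart 3 of these were called, all higher, where 50.2% of genes were called. Irs2 had a median of 3.24 TPM in Dchs1 Het heart against 1.69 TPM in Dchs1 WT heart, with a fold change of 0.84 ± 0.22 (adjusted p = 0.00109). Foxo3 had medians of 12.96 TPM in Dchs1 Het and 7.65 TPM in Dchs1 WT heart (0.70 ± 0.13, adjusted p = 1.11e-05), and Foxo1 of 11.4 and 8.88 TPM (0.32 ± 0.060, adjusted p = 1.16e-05). Each of these 3 members lay above the WT median in 26 of 30 Dchs1 Het hearts, and the ranges overlapped. In Dchs1 lung (20% of genes called), Fat4 heart (1.6%) and Fat4 lung (0.136%) edgeR called 0 members, and 1, 3 and 1 members had an unadjusted p under 0.05. DESeq2 also called 0 members in each of these 3 comparisons. The share of all calls that were higher was 47.9% in Dchs1 lung, 60.7% in Fat4 heart and 81.0% in Fat4 lung, and with limma on log2(TPM + 1) it was 26.1%, 87.1% and 60.0%. In Dchs1 lung Irs2 had a fold change of 0.37 ± 0.17 (adjusted p = 0.127) over all libraries and 0.37 (adjusted p = 0.00619) within the longest run of library numbers, and Foxo3 had 0.35 (adjusted p = 0.249) and 0.35 (adjusted p = 0.0375).

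Pck1 in heart was low and the most uneven of the members, from 0 to 74.3 TPM in Dchs1 Het heart and from 0.0244 to 67.8 TPM in Dchs1 WT heart. Across the 30 libraries of each heart group it followed Adipoq, the gene of a hormone made by fat cells, a relation chosen after its values were seen. Pearson's r of log2 CPM was 0.966 in Dchs1 Het, 0.966 in Dchs1 WT, 0.967 in Fat4 Het and 0.965 in Fat4 WT heart, with Spearman's rho of 0.949, 0.955, 0.958 and 0.965. In lung r was 0.801, 0.589, 0.902 and 0.907 in the same order, with rho of 0.792, 0.570, 0.804 and 0.874. Of the 8 relations all had an adjusted permutation p of 0.00132 or less, and r stayed between 0.591 and 0.968 without the pair of libraries farthest from the median of Adipoq, and between 0.686 and 0.971 within the longest run. The smallest p that 100000 permutations can give is 1e-05. The summed TPM of 4 fat cell markers ran from 0.0514 to 113 over the heart libraries and reached at most 1.16 in liver. It ran from 11.8 to 261 over the lung libraries and from 11.7 to 196 over the kidney libraries.

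The Het effects on several members differed between the lines. Tested as a difference, 3 of 9 members passed in liver (23.6% of all genes), 5 of 9 in kidney (33.5%), 2 of 6 in heart (25.5%) and 0 of 6 in lung (5.0%, with 0 members at an unadjusted p under 0.05). In liver the Dchs1 effect exceeded the Fat4 effect by 1.29 for Igfbp1, 0.64 for Slc37a4 and 0.57 for Irs2. The Igfbp1 and Irs2 differences missed the threshold within the longest run (adjusted p of 0.0956 and 0.086) and without the filter on low counts (0.0514 and 0.0735), and the Igfbp1 difference was 2.03 without the WT liver at 2859.8 TPM. In kidney the difference was -0.45 for Fbp1 and 0.55 for Irs1, the pair with opposite signs, and 0.57 for Irs2, 0.57 for Foxo3 and 0.14 for Foxo1, the last lost within the longest run (adjusted p = 0.061), without the filter on low counts (0.0774) and without 1 Dchs1 Het kidney (0.0524). Without the WT kidney at 107 TPM, Igfbp1 differed between the lines in kidney as well, by 1.22 (adjusted p = 0.00397). That fit kept the 3 Dchs1 Het kidneys at or above 77.3 TPM. Of all 30 Dchs1 Het kidneys, 12 lay above the median of Dchs1 WT kidney in Igfbp1. Between liver and kidney of the Dchs1 line 5 of 9 members differed in their Het effect (36.1% of all genes), with Igfbp1, Slc37a4 and Fbp1 more positive in liver and Irs1 and Foxo3 more positive in kidney. That of Igfbp1 was lost without the WT kidney at 107 TPM (1.14, adjusted p = 0.067). In the Fat4 line Igfbp1 alone of the 9 differed between liver and kidney (4.49% of all genes), and it missed the threshold within the longest run (1.03, adjusted p = 0.0605).

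**Figure D4:**
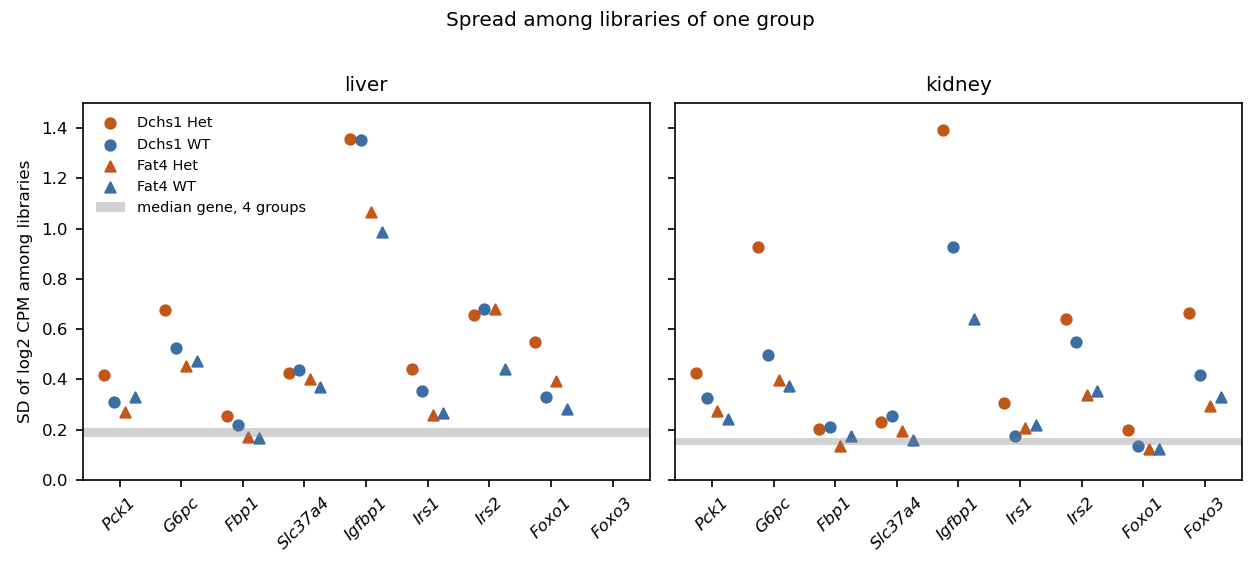
Standard deviation of log2 CPM among the libraries of 1 group for each member in liver and kidney, with the range of the median gene as a grey band. Symbols are the groups, and members under 10 CPM on average are left out. Igfbp1 reached 1.35 in Dchs1 WT liver, where the median gene had 0.203.

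Among WT livers, which share genotype and tissue, Igfbp1 varied most of the members. Its highest library was 126 times its lowest in Dchs1 WT liver and 18.3 times in Fat4 WT liver, and 24.7 times in Dchs1 WT liver without the library at 2859.8 TPM. The standard deviation of its log2 CPM was 1.35 and 0.99, rank 28 of 7133 and rank 30 of 7125 among genes of at least 10 CPM, and 1.05 in Dchs1 WT liver without that library. Irs2 had 0.68 and 0.44, G6pc 0.52 and 0.47, and Slc37a4 0.44 and 0.37. Irs1 had 0.35 and 0.27, and Foxo1 0.33 and 0.28. Pck1, with 0.31 and 0.33, was more variable than 83.5% and 91.9% of these genes. Fbp1, with 0.22 and 0.17, came closest to the median gene at 0.203 and 0.169. In WT kidney Igfbp1 again led, with 0.93 and 0.64 against 0.167 and 0.143 for the median gene (0.61 in Dchs1 WT kidney without the library at 107 TPM), and Foxo1, with 0.13 and 0.12, lay below the median gene. In Dchs1 Het kidney Igfbp1 reached 1.39 and G6pc 0.93, rank 7 and rank 20 of 8728 genes.

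Some pairs of members were correlated among WT livers. Of 36 pairs in a group, 14 had a correlation with an adjusted permutation p under 0.05 in Dchs1 WT liver and 8 in Fat4 WT liver, all positive (n = 30 libraries each, Pearson's r of log2 CPM). Fbp1 was in no pair that passed there, and the share of correlated pairs over all genes was not computed. Igfbp1 and Irs2 had r of 0.72 and 0.62 in the Dchs1 and Fat4 lines (rho 0.58 and 0.66, adjusted p of 0.00036 and 0.00342), and 0.60 and 0.53 without the pair of libraries farthest from the median of Igfbp1. G6pc and Igfbp1 had 0.66 and 0.59 (rho 0.68 and 0.61, adjusted p of 0.00036 and 0.00558), and 0.65 and 0.72 without the pair farthest in G6pc. Within the longest run of library numbers the values were 0.66 and 0.60 for Igfbp1 with Irs2, and 0.55 and 0.73 for G6pc with Igfbp1. The Dchs1 WT liver highest in Igfbp1 belongs to the longest run and was not in the pair farthest in G6pc. Neither check of G6pc with Igfbp1 therefore left it out. Pck1 and Foxo1 had 0.58 and 0.64 (rho 0.57 and 0.62). In WT kidney 22 and 18 pairs passed. The 22 include the Dchs1 WT kidney at 107 TPM of Igfbp1, the highest of its group in every member except Fbp1. The 14 likewise include the Dchs1 WT liver highest in Igfbp1, which was also the highest of its group in Pck1, Slc37a4, Irs2 and Foxo1. Neither number of pairs was computed again without that kidney or that liver alone. Fewer pairs passed in Dchs1 WT kidney and in Dchs1 WT liver without the pair of libraries farthest from the median. Among the pairs in WT kidney, Fbp1 and Foxo1 had a negative r of -0.63 in the Fat4 line (rho -0.52, adjusted p = 0.0013), the larger of 2 negative pairs.

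**Figure D5:**
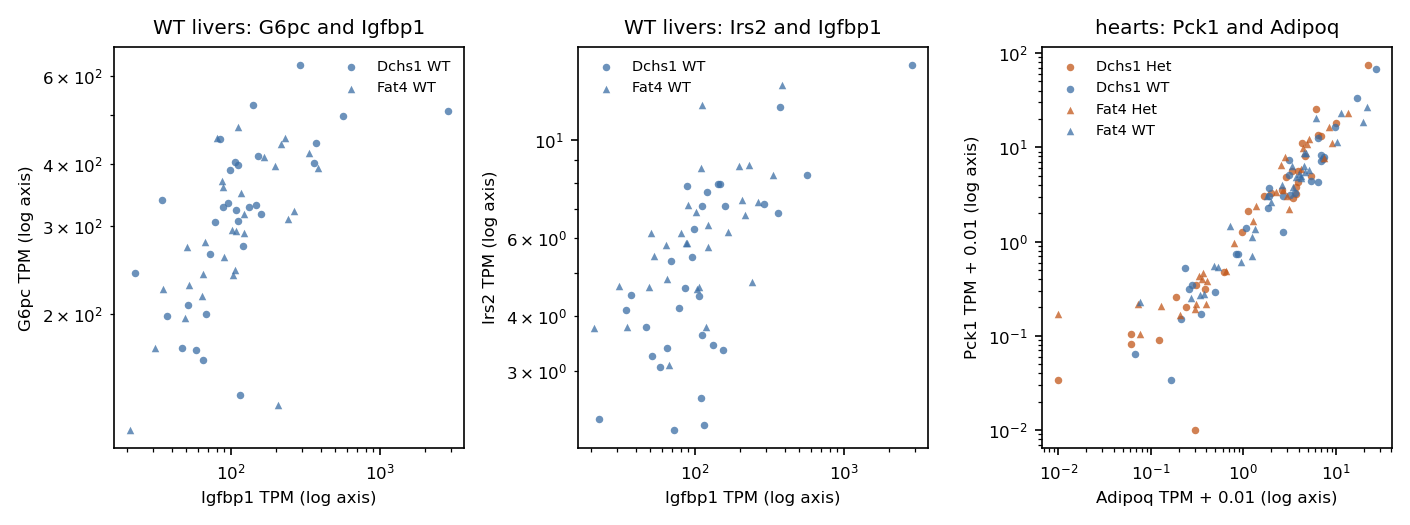
TPM of G6pc and of Irs2 against Igfbp1 in WT livers of both lines, and of Pck1 against Adipoq in hearts of all 4 groups (0.01 added), 1 point per library on log axes. The points rise together in each panel, with r of 0.66 and 0.59 for G6pc with Igfbp1 in Dchs1 and Fat4 WT liver.

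For each member, the genes most alike were those with the highest smaller r over the 30 Dchs1 and 30 Fat4 WT livers, among 6974 genes. Pck1 was closest to Klf15, a glucocorticoid-induced transcription factor, with r of 0.80 and 0.81, then to Tnfrsf1b and Slc25a51. Foxo1 was closest to Lpin1, a phosphatidate phosphatase (0.81 and 0.77), G6pc to Slc25a25 (0.69 and 0.75), and Slc37a4 to Cdip1 (0.83 and 0.84). Igfbp1 was closest to Zfp281 (0.86 and 0.73), Irs2 to Cdk17 (0.74 and 0.73), Irs1 to Tet3 (0.84 and 0.72) and Fbp1 to Qprt (0.86 and 0.84). Foxo3 was under the 10 CPM needed. These correlations share libraries and were ranked over many genes, so they carry no p.

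Other genes of the pathways were counted by list in liver, from lists chosen with earlier results of these data known. The counts are to be read beside the shares of all genes called there. These were 24.3% higher, 25.4% lower and 49.8% either way in the Dchs1 line, and 3.64%, 3.51% and 7.15% in the Fat4 line. Of 14 tested genes for gluconeogenesis and its substrate supply, 9 were called higher and 1 lower in Dchs1 Het liver, with a median fold change of 0.30 beside -0.0041 for all genes. Got1, an aspartate aminotransferase, was higher by 1.15 and Gpt2, an alanine aminotransferase, by 0.56. In Fat4 Het liver 1 of 14 was called higher, Tat, with a fold change of 0.46, and 0 lower.

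Of 13 tested genes of glycolysis and lipogenesis that insulin and sugar raise, 7 were called lower and 1 higher in Dchs1 Het liver, where 49.8% of all genes were called, and their median was -0.37. Srebf1, a transcription factor of lipid synthesis, fell by 1.12 and Mlxipl, the carbohydrate response factor, by 0.87 on the log2 scale. In Fat4 Het liver 2 of 13 were called higher and 2 lower, neither Srebf1 nor Mlxipl among them.

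Of the insulin and IGF signalling list, 5 of 16 genes were called higher and 3 lower in Dchs1 Het liver, a share near the 49.8% of all genes called, and 0 of 16 were called in Fat4 Het liver, by edgeR and by DESeq2 alike, with 1 at an unadjusted p under 0.05. Grb14, an inhibitor of the insulin receptor, was higher by 0.38, while Pik3r1 was lower by 0.47 and Igf1 by 0.32 in Dchs1 Het liver. Against the same 49.8%, 6 of 14 FoxO targets were called higher and 2 lower in Dchs1 Het liver, with Bnip3 higher by 0.75 and Cat, encoding catalase, lower by 0.56, and in Fat4 Het liver 1 was called higher and 1 lower. Of 10 tested relatives of the members 3 were called higher and 3 lower in Dchs1 Het liver, and 2 higher and 0 lower in Fat4 Het liver. Igfbp2 was higher by 0.78 in Dchs1 and 0.46 in Fat4 Het liver, and Igfbp3 by 0.66 and 0.48. Of the regulators of gluconeogenic genes 3 of 14 were called higher and 3 lower in Dchs1 Het liver, led by Cebpa, lower by 0.73, and Sik1, a kinase that cAMP induces, higher by 1.87. Of these 14, 0 were called in Fat4 Het liver by edgeR or by DESeq2, with 4 at an unadjusted p under 0.05.

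Lists of PPAR alpha and fasting genes and of glucocorticoid response genes were counted beside the members. Of 10 PPAR alpha and fasting genes 8 were called higher and 0 lower in Dchs1 Het liver (median 0.65), and of 10 glucocorticoid response genes 5 and 0 (median 0.73), where 24.3% of all genes were called higher. Cyp4a10 had a mean of 6617 ± 803 CPM in Dchs1 Het and 3448 ± 1617 CPM in Dchs1 WT liver. In Fat4 Het liver 1 of 10 PPAR alpha genes and 0 of 10 glucocorticoid response genes were called higher, and 0 of either were lower, with 2 glucocorticoid response genes at an unadjusted p under 0.05 and 0 called by DESeq2. The part of these responses in the members' results was not tested.

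In Dchs1 Het kidney 5 of 13 tested gluconeogenesis and substrate genes were called higher and 5 lower, where 23.4% of all genes were called higher and 23.8% lower. Fbp2, the paralogue of Fbp1, had a mean of 24.3 ± 4.70 CPM in Dchs1 Het and 12.8 ± 2.93 CPM in Dchs1 WT kidney, while Gk, glycerol kinase, was lower by 0.77. All 9 PPAR alpha genes tested and 9 of 10 glucocorticoid response genes were called higher there. In Fat4 Het kidney 5 of 13 gluconeogenesis and substrate genes were called higher and 0 lower, with Gpt, an alanine aminotransferase, higher by 0.37 and Gpd1 by 0.22. Of its 12 tested glycolysis and lipogenesis genes 5 were called higher and 0 lower, where 9.21% of all genes were called higher and 7.87% lower. In Fat4 Het kidney 5 of 9 tested PPAR alpha genes were also called higher and 0 lower (median 0.33). Of 10 glucocorticoid response genes 3 were called higher there and 0 lower (median 0.19).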

How the data were processed

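Poly(A) RNA was selected with magnetic beads and read from strand-specific, single-end libraries, per the labels' protocols. Per the submitters' processing notes, bcl2fastq 2.17 and FastQC were used and the build was GRCm38. For the aligner and the counting program, a name was not given in the sources used here. Per line, the authors deposited estimated counts per gene, of which 15.35% (Dchs1) and 15.51% (Fat4) were not whole, and how reads matching several genes were assigned is not stated. The authors also deposited TPM, which keep no depth. All columns matched a label (0 unmatched), and no library held values identical to those of another in its group.

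Estimated counts were rounded and given to edgeR 4.0.16 (R 4.3.3) for the quasi-likelihood test with TMM scaling. Genes passed filterByExpr at a count of 10 and a total of 15, with Benjamini-Hochberg adjustment over all genes tested, with a threshold of 0.05. Each line and tissue was fitted on its own libraries, and differences between lines or tissues were fitted as interactions. Standard errors were taken from the fold change and F. The procedure was checked on simulated data. Alternatives were DESeq2 1.42.0, DESeq2 size factors within edgeR, no filter on low counts, limma 3.58.1 on log2(TPM + 1) or log2(TPM + 0.1) for genes of at least 1 TPM in 20 libraries or without that filter, runs of library numbers (gaps of up to 2 allowed) as a covariate or one at a time, leaving out libraries more than 5 median absolute deviations from their group, and leaving out single libraries. Leaving out the library farthest from its group or highest in Igfbp1, and the relation of Pck1 to Adipoq, were chosen after seeing the data.

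Correlations used log2 CPM and 100000 two-sided permutations, adjusted over the 36 pairs of a group. Floors of 3 counts cover counting error only. The members, 8 lists of 108 related genes and the markers were chosen with earlier results of these data known. Genes named were all members, the targeted gene, up to 3 called genes per list with the smallest p in a comparison, and the up to 3 genes most alike each member in WT liver. Promoters are RefSeq, GRCm38.p6, and coordinates are of that build. Results for a few list genes are not reported here.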

Additional observations from a re-analysis of the deposited data

Results flagged for a closer look

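Several members had Het effects that differed between the lines or between liver and kidney by a test of the difference itself (edgeR interaction, adjusted p under 0.05). No explanation was tested for any of them.

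In liver the Dchs1 effect minus the Fat4 effect was 1.29 for Igfbp1, 0.64 for Slc37a4 and 0.57 for Irs2 on the log2 scale. Without the Dchs1 WT liver at 2859.8 TPM the difference in Igfbp1 was 2.03. The Igfbp1 and Irs2 differences missed the threshold without the filter on low counts (adjusted p of 0.0514 and 0.0735) and within the longest run of library numbers (1.07, adjusted p = 0.0956, and 0.52, adjusted p = 0.086).

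In kidney the difference was -0.45 for Fbp1, 0.55 for Irs1, 0.57 for Irs2, 0.57 for Foxo3 and 0.14 for Foxo1. The small Foxo1 difference missed the threshold without the filter (adjusted p = 0.0774), within the longest run (adjusted p = 0.061) and without 1 Dchs1 Het kidney (adjusted p = 0.0524). Without the Dchs1 WT kidney at 107 TPM, Igfbp1 also differed between the lines in kidney, by 1.22 (adjusted p = 0.00397). The 3 Dchs1 Het kidneys at or above 77.3 TPM stayed in that fit, and 12 of 30 Dchs1 Het kidneys lay above the WT median. In heart the difference was 0.29 for Foxo1 and 0.58 for Foxo3.

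Within the Dchs1 line, the Het effect in liver minus that in kidney was 1.65 for Igfbp1, 0.70 for Slc37a4, 0.41 for Fbp1, -0.54 for Irs1 and -0.58 for Foxo3. For Igfbp1 it was 1.14 (adjusted p = 0.067) without the WT kidney at 107 TPM and 2.40 without the WT liver at 2859.8 TPM. Within the Fat4 line it was 1.07 for Igfbp1, and 1.03 (adjusted p = 0.0605) within the longest run.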

How the results depend on the processing

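No paired analysis was possible because each library number belongs to 1 library and links no Het library to a WT library. The numbers also link no liver to a kidney. Tests between these tissues therefore treated their libraries as independent, even if some came from the same mouse. DESeq2 and DESeq2 size factors changed 0 of 108 and 0 of 126 results for single members. Leaving out single libraries gave 2.10 to 2.94 for Igfbp1 in Dchs1 liver and 0.27 to 1.06 in Dchs1 kidney. The cause of the shifts below was not tested, although fewer libraries enter within or outside a run and other genes are tested with TPM.

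On log2(TPM + 1), WT liver against WT kidney turned over for Pck1 (-0.12) and Foxo1 (-0.34) in the Dchs1 line and for Pck1 (-0.16), Slc37a4 (-0.26), Foxo1 (-0.084) and Foxo3 (-0.39) in the Fat4 line. Igfbp7 in Dchs1 kidney was -0.09 with counts and 0.00395 in the TPM fits. Fat4 liver had 1 member called with either pseudocount and 0 without the filter, where edgeR had 3. All genes called with limma (+ 1, + 0.1, no filter) were 1453, 1451 and 1174 in Fat4 kidney (2393 by edgeR), 132, 131 and 75 in Fat4 heart (211) and 10, 10 and 10 in Fat4 lung (21). Fat4 heart gave 328 with DESeq2 and 95 without the filter on low counts, and Fat4 lung gave 62 with DESeq2 and 9 without outlying libraries, where Dchs1 lung had 1 member called. Without the filter, 1 member instead of 3 differed between the lines in liver.

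Outside the longest run, with 5 to 7 libraries a group, all genes called were 1987 in Dchs1 liver, 1511 in Dchs1 kidney, 1067 in Dchs1 heart, 6 in Dchs1 lung, 2 in Fat4 kidney and 2 in Fat4 heart, and members called were 2 in Dchs1 kidney, 1 in Dchs1 heart and 0 in Fat4 kidney. Foxo1 in Dchs1 kidney was -0.039 there. In Dchs1 lung the run as a covariate gave 2 members and 4711 genes, and the longest run alone 2 and 4623 (3018 over all libraries). Fat4 heart had 351 and 117 genes in these fits. Within the longest run 1 member differed between the lines in liver, 1658 genes in lung (775 over all), and 0 members between Fat4 liver and kidney. Pairs of members correlated in Dchs1 WT liver numbered 9 without the farthest pair of libraries and 8 within the longest run (14 over all), and 13 in Dchs1 WT kidney without the farthest pair (22 over all).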
